A study of Mus musculus with 4 samples.

Results

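Natural killer (NK) cells were the smallest lymphoid class followed here in the hindpaw leukocytes of lean and diabetic mice. They were defined as Ncr1+ barcodes, and 186 of the 27800 barcodes that passed quality control met the definition, out of 30793 barcodes in all. A barcode counted as an NK cell when it held at least 1 unique molecular identifier (UMI, 1 counted RNA molecule) of Ncr1 and at least 1 UMI of Xcl1, Ccl5 or Txk together. It also had to hold no UMI of the CD3 genes Cd3e and Cd3g and fewer than 2 UMIs of Gata3. C1qa, C1qb and C1qc together had to come to fewer than 5 UMIs. These limits were set against T cells, type 2 innate lymphoid cells (ILC2) and macrophages, but transcripts of each were still found, as given below. The cells were thus chosen by the measured levels of the genes of the rule, which are described here without a test.

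The mice were male. The diabetic group (DB) carried the Lepr db/db mutation on the C57BLKS/J background, in the strain C57BLKS/J-Dock7m +/+ Leprdb, and the wild-type group (WT) were littermates. Both hindpaws were taken after perfusion with saline, digested, and sorted for CD45, so leukocytes of every hindpaw tissue were mixed. There were 4 droplet libraries, a WT and a DB library at 12 weeks and another pair at 21 weeks, each from the pooled cells of 2 or 3 mice. Where 4 values stand in a row below, the younger pair comes first and WT precedes DB within each age, which is called library order. The spread between mice therefore cannot be measured, and no test was made between conditions. The mutation is carried in every tissue of the DB mice, so an effect on the NK cells themselves and an effect of the diabetic animal cannot be told apart.

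NK cells are innate lymphocytes that kill infected or altered cells without a rearranged antigen receptor. Activating receptors such as NKp46 (the product of Ncr1) and NKG2D and inhibitory receptors of the Ly49 and NKG2 families are read together, and killing runs through granules that hold perforin and granzymes. The transcription factors T-bet and Eomes set the programme, with Eomes marking the conventional cells that circulate. A related class, the type 1 innate lymphoid cells (ILC1), also carries Ncr1 but stays in tissue, often with little Eomes and more of the interleukin-7 receptor, and the rule used here does not separate the 2.

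Sequence just upstream of 4 genes is shown because they carry the results described below: Ncr1 chose the cells, and Gzma, Prf1 and Eomes were lower in DB. The rule required Ncr1 in every cell, so its level is no measure of evenness between the libraries. Each line gives the 150 bases before the RefSeq start of the gene on its own strand (build GRCm38.p6). These are chr7:4337565-4337714 on the plus strand for Ncr1, chr13:113100982-113101131 on the minus strand for Gzma, chr10:61297686-61297835 on the plus strand for Prf1 and chr9:118478039-118478188 on the plus strand for Eomes. Capitals mark 3 sets of letters searched on both strands, the T-box letters AGGTGT, the Runx letters TGTGGT and the Ets letters GGAAGT, each shown as read on the printed strand.
Ncr1: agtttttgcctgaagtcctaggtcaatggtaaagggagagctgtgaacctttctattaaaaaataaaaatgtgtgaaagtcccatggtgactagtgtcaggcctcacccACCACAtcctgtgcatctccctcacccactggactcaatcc
Gzma: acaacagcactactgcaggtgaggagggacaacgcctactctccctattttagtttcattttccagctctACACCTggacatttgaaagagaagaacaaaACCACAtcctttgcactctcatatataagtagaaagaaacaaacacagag
Prf1: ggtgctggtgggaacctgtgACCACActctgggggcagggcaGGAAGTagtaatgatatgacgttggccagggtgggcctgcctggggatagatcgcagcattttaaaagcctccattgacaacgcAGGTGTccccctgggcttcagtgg
Eomes: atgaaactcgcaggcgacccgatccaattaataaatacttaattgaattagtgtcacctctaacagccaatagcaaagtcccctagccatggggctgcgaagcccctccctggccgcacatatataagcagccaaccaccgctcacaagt
The Gzma window held 1 T-box and 1 Runx match, the Prf1 window 1 of each of the 3, the Ncr1 window 1 Runx match, and the Eomes window none. Over 250 upstream bases of 27025 RefSeq promoters, 11.99% held the T-box letters, 14.2% the Runx letters and 19.99% the Ets letters, and letters of different motifs overlapped in 0.533%. A match is only a match of letters. In the annotation of the mm10 build, the windows lie at the 5′ ends of Ncr1 (chr7:4337724-4345164), Gzma (chr13:113093825-113100981), Prf1 (chr10:61297833-61304680) and Eomes (chr9:118478212-118486132).

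NK cells were few in every library. Library order gave 41, 39, 57 and 49 of them. They made up 0.778% (95% exact Clopper-Pearson interval 0.559 to 1.05) of 5271 kept barcodes in 12-week-WT and 0.595% (0.424 to 0.813) of 6552 in 12-week-DB. At 21 weeks they made up 0.784% (0.594 to 1.01) of 7270 barcodes in WT and 0.563% (0.417 to 0.743) of 8707 in DB. The DB to WT ratio of these shares was 0.765 (0.494 to 1.18) at 12 weeks and 0.718 (0.491 to 1.05) at 21 weeks, and neither interval excluded 1. With the cells thinned to 2000 UMIs the ratio at 21 weeks was 0.640 (0.414 to 0.989), which did exclude 1, so the 21-week comparison rests on the setting. These intervals, and all others given for single libraries, cover counting error only.

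Among lymphoid cells the share in DB was lower. Of the NK cells and 3 other lymphoid gates together, NK cells were 4.45% of the WT cells at 12 weeks and 2.15% of the DB cells, and 3.15% and 1.72% at 21 weeks. The ratio was 0.483 (0.314 to 0.743) at 12 weeks and 0.546 (0.375 to 0.796) at 21 weeks. The other gates were larger in DB in most cases: ILC2 numbered 311, 651, 484 and 1281 cells in library order. γδ T cells numbered 396, 790, 759 and 1046, and αβ T cells 174, 336, 510 and 473. A share falls when its neighbours grow, so the 2 denominators answer different questions.

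**Figure D1:**
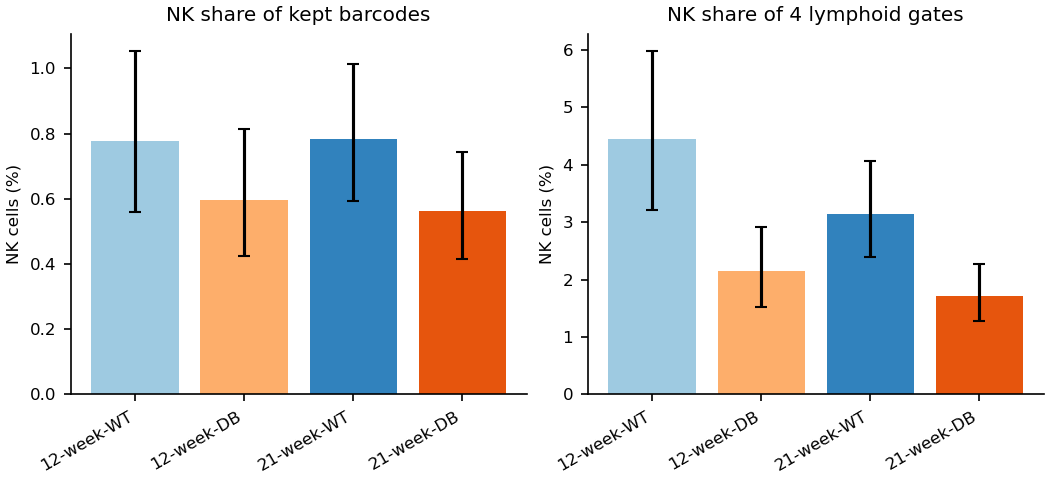
Share of NK cells (%, bars) in each of the 4 libraries, of all kept barcodes (left) and of the NK cells and 3 other lymphoid gates together (right), with exact 95% binomial intervals. The intervals of all 4 libraries overlap on the left, while on the right the WT bars (4.45% and 3.15%) stand above the DB bar of the same age (2.15% and 1.72%).

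Depth per cell differed between the 4 libraries, with a higher median in DB than in WT at both ages. The median NK cell held 5217, 5788, 4481 and 6301 UMIs in library order. Summed over NK cells, the libraries held 254875, 263439, 295891 and 304753 UMIs in the same order, out of 47851794, 57025899, 69626521 and 54989592 UMIs over all barcodes. Levels below are CPM, each gene's UMIs per 1e+06 UMIs of these NK sums, in which 1 UMI is worth 3.92, 3.80, 3.38 and 3.28 CPM, and a gene with no UMI may still lie at up to 11.8, 11.4, 10.1 and 9.84 CPM (3 UMIs). No NK barcode occurred in more than 1 library.

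The marker genes of the label were present in every library. Of the 5, Ncr1, Xcl1, Ccl5 and Txk were part of the rule, so AW112010 alone was measured apart from it. Ncr1 stood at 428, 311, 446 and 381 CPM in library order. Txk, a kinase of T and NK cells, stood at 777, 824, 686 and 607 CPM, and neither gene set the WT libraries apart from the DB libraries by as much as 2-fold. Ccl5, a chemokine stored by cytotoxic lymphocytes, was less even, at 3865, 1105, 7716 and 2133 CPM. Xcl1, the chemokine that attracts cross-presenting dendritic cells, stood at 891, 661, 257 and 764 CPM and was lowest in 21-week-WT. AW112010, an interferon-inducible transcript, stood at 1766, 672, 2771 and 860 CPM.

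Near the edge of the rule, 16, 16, 24 and 22 cells held exactly 1 UMI of Ncr1 in library order. Cells left out only because they held no Ncr1 UMI numbered 191, 180, 332 and 239. These excluded cells were mixed, with Gzma at 135, 81.9, 150 and 5.45 CPM and Cst3, an antigen-presenting cell gene, at 3087, 3536, 4155 and 2296 CPM. Cells left out only for Gata3 numbered 28, 26, 32 and 14, and those left out for Cd3e or Cd3g with all else met numbered 6, 8, 4 and 6.

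T cell genes were checked because NK cells share much with T cells. The rule had set the T cell markers Cd3e and Cd3g to 0 UMIs, so only the other markers could show T cell RNA. Over the 14 T cell markers, NK sums came to 702, 725, 723 and 1194 CPM in library order, with 7, 7, 5 and 10 of them detected. Trbc1 was the most abundant of them in every library, at 369, 395, 335 and 558 CPM, and Cd8a and Cd8b1 were at 0 UMIs throughout. Trbc1 was also detected in many ILC2, which are not T cells: 85.4%, 76.9%, 68.4% and 91.8% of NK cells held a UMI of it, against 77.8%, 79.3%, 80.8% and 75.0% of ILC2. Free RNA can enter such shares, and no background share is given beside them, so the source of Trbc1 was not tested. Trac stood at 11.8, 0, 0 and 16.4 CPM and Cd3d at 3.92, 3.80, 0 and 3.28 CPM. Markers of the type 3 innate lymphoid cells, some of which carry Ncr1, were checked too: Il22 and Il23r had no UMI in any library.

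The NK cells were first set against the other lymphocytes of the same libraries. UMI sums of NK cells and of each comparator gate were compared over the 4 libraries with the quasi-likelihood test of edgeR, the library entering as a block, and Benjamini-Hochberg adjustment over all genes tested. The genes that defined the gates were left out. The 4 libraries are 4 different conditions, so the p-values measure the spread of the within-library difference across them, and genes that vary with the gate genes enter the result.

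Granzyme A, the Ly49 and NKR-P1 receptor genes Klra3 and Klrb1c and Eomes were among the genes higher in NK cells than in all 3 comparators. Of 8678 genes tested against αβ T cells, 466 were higher in NK cells (5.37%) and 465 were lower (5.36%). Without the filter on low counts the balance was less even, with 498 of 18170 higher and 813 lower. Of 10165 tested against γδ T cells, 563 were higher (5.54%) and 870 lower (8.56%). Of 9899 tested against ILC2, 516 were higher (5.21%) and 640 lower (6.47%). Among the 8590 genes tested in all 3 comparisons, 253 were higher in NK cells than in every comparator and 200 were lower. The 253 also held markers of other lineages, Tpsb2 of mast cells and Ighm of B cells. The comparator gates capped mast cell UMIs and the NK rule did not.

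Gzma, a granule protease, had the largest log2 fold change in all 3 comparisons among the called genes with at least 50 CPM in NK cells and 1 direction in 4 libraries. Against ILC2 the Ly49 gene Klra1, at a mean of 15.2 CPM in NK cells and 0 CPM in ILC2, had a larger fitted value (7.78 ± 1.39). With no ILC2 UMI that value measures no fold, so it is not ranked against Gzma. Gzma was higher by 7.59 ± 0.90 (SE) against αβ T cells (edgeR adjusted p = 4.7e-05), by 9.68 ± 0.35 against γδ T cells (adjusted p = 5.1e-11) and by 7.59 ± 0.19 against ILC2 (adjusted p = 1.4e-13), in 4 of 4 libraries each. Prf1, which encodes the pore-forming perforin, was higher by 5.10 ± 0.40, 2.41 ± 0.61 and 5.08 ± 0.28 on the same scale, with edgeR adjusted p of 9.5e-07, 0.014 and 1.8e-09. Of the 18 cytotoxic granule and death ligand genes, 9, 10 and 8 of the 16 tested in each comparison were higher. One gene was lower in each: Srgn, the granule proteoglycan, against αβ T cells and ILC2, and Rab27a, which docks granules, against γδ T cells.

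Receptors followed the same pattern. Of 18 activating receptors and adaptors tested, 13, 16 and 17 were higher in NK cells than in αβ T cells, γδ T cells and ILC2, and 1, 2 and 0 were lower. Klrb1c, which encodes NK1.1, was higher by a log2 fold change of 5.77 ± 0.43 against αβ T cells, 4.56 ± 0.47 against γδ T cells and 6.14 ± 0.40 against ILC2 (edgeR adjusted p = 5.7e-07, 4.7e-06 and 1.5e-08). Tyrobp, the adaptor DAP12 that signals for several of these receptors, was higher by 3.21 ± 0.28, 4.12 ± 0.20 and 3.35 ± 0.21. Zap70, the kinase shared with the T cell receptor, had a log2 fold change of -0.99 against αβ T cells (edgeR adjusted p = 0.0074) and -1.49 against γδ T cells (adjusted p = 2.0e-04). Among inhibitory receptors, 7 of 15, 10 of 17 and 10 of 15 were higher, Klra3 among them at 5.43 ± 0.49, 8.02 ± 0.31 and 6.17 ± 0.24. In the same order 2, 2 and 3 were lower, Pdcd1 in each comparison. The Klra, Klrb1 and granzyme genes form families with closely similar sequence, so counts may be split between copies and single members are less certain.

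Transcription factors and cytokines differed in both directions. Of 18, 18 and 17 transcription factors tested, 5, 6 and 7 were higher in NK cells than in αβ T cells, γδ T cells and ILC2, and 5, 8 and 5 were lower. Eomes was higher in NK cells by a log2 fold change of 4.45 ± 0.31, 8.78 ± 0.47 and 5.61 ± 0.25, and Tbx21, which encodes T-bet, by 2.91 ± 0.26, 5.24 ± 0.32 and 3.96 ± 0.28 against αβ T cells, γδ T cells and ILC2. Irf8, a factor that NK cells share with dendritic cells, was higher by 3.22 ± 0.45, 3.02 ± 0.47 and 3.11 ± 0.31. Rora, a nuclear receptor of ILC2, and Ets1 were lower against all 3, Rora with log2 fold changes of -1.09, -0.80 and -1.56 and Ets1 with -0.53, -0.52 and -0.53. Ifng, the main NK cytokine, was higher by 1.73 ± 0.19, 6.15 ± 0.36 and 3.43 ± 0.34, with edgeR adjusted p of 2.9e-05, 8.1e-09 and 2.0e-06. Of the 17, 15 and 17 secreted factors tested, 4 were higher in each comparison (Ccl3, Ccl4, Ifng and Vegfa), and 7, 6 and 6 were lower, with Il22, Il13, Areg and Csf2 lower against all 3.

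Several genes of tissue residence stood lower in NK cells than in their neighbours, though not all. Of 17 ILC1 and residency genes tested, 8, 11 and 9 were lower against αβ T cells, γδ T cells and ILC2, and 0, 4 and 0 were higher. The 4 that were higher against γδ T cells were Itga1, Inpp4b, Tnfsf10 and Ctla2a. Cxcr6, a receptor that holds lymphocytes in tissue, had log2 fold changes of -2.65 ± 0.21, -3.60 ± 0.25 and -2.30 ± 0.22. Il7r, the interleukin-7 receptor, had -1.44 ± 0.25, -1.85 ± 0.31 and -1.93 ± 0.25, and Il2ra, the high-affinity interleukin-2 receptor chain, -2.70 ± 0.30, -3.78 ± 0.35 and -4.06 ± 0.29. Of the 18 conventional NK genes, by contrast, 13, 15 and 14 of the 16 tested were higher, and Emb, an adhesion protein of that list, was lower in each comparison. Il2rb, the receptor chain for interleukin-15 and interleukin-2, was higher by 2.18 ± 0.17, 1.57 ± 0.21 and 2.24 ± 0.16.

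Several genes outside these lists marked the gate. Car2, a carbonic anhydrase, was higher by a log2 fold change of 6.96 ± 0.27 against αβ T cells and 8.81 ± 0.38 against γδ T cells, and Adamts14, a secreted protease, by 7.45 ± 0.48, 6.71 ± 0.58 and 6.13 ± 0.44. Ly6c2 was higher by 2.77 ± 0.17, 6.07 ± 0.25 and 4.71 ± 0.39. Among the 8 genes lowest in NK cells, some had no NK UMI at all: Cd8b1 and Slamf1 against αβ T cells, Il23r, Sox13 and Tcrg-C2 against γδ T cells, and Il5 and Htr1b against ILC2. Il1rl1, the interleukin-33 receptor of ILC2, stood at a mean of 3.48 CPM in NK cells and 426 CPM in ILC2. Of the 15 glycolysis and glucose transport genes tested, none was called higher in any comparison, and 5, 4 and 3 were lower. Gapdh was one of them, with log2 fold changes of -0.97 ± 0.14, -0.56 ± 0.17 and -0.63 ± 0.15 (edgeR adjusted p = 2.9e-04, 0.038 and 0.0081).

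**Figure D2:**
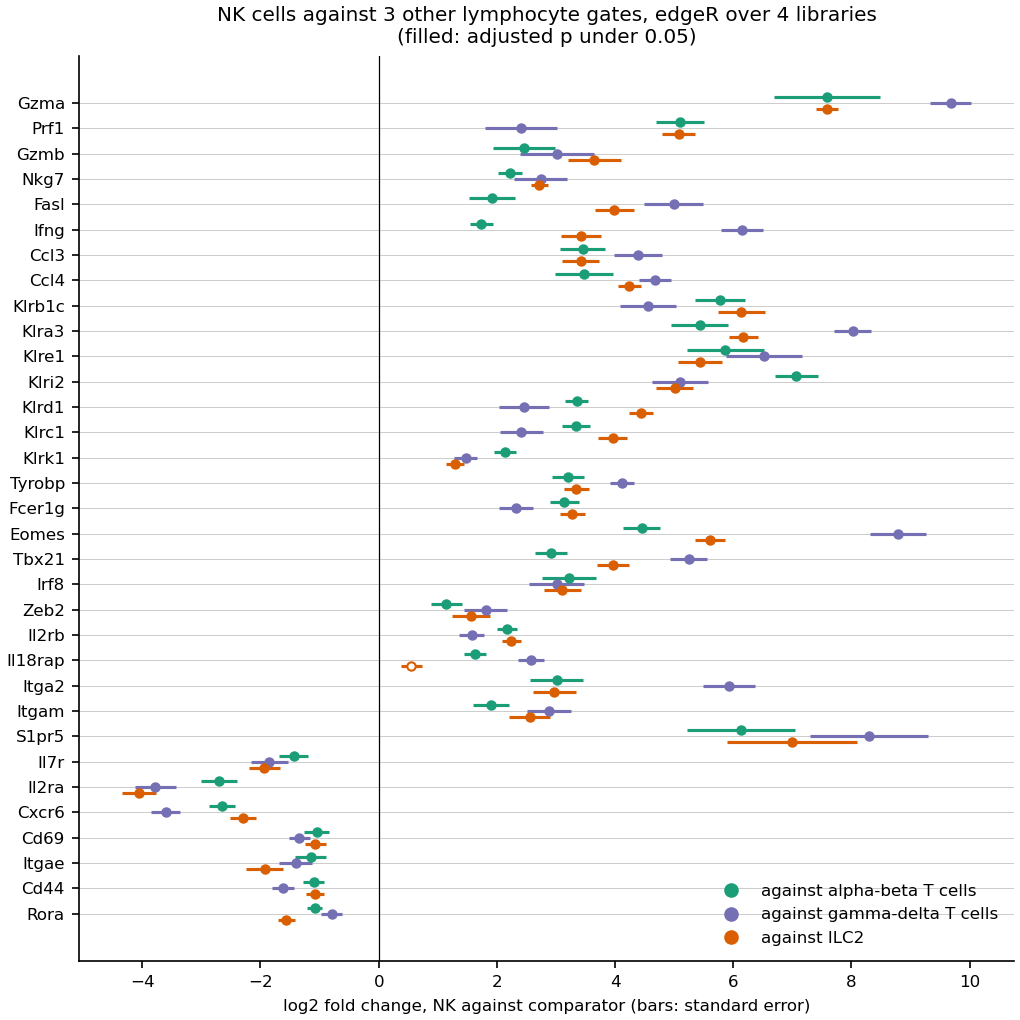
Log2 fold change of named genes in NK cells against αβ T cells, γδ T cells and ILC2 (x axis), from edgeR over the 4 libraries, with standard errors and filled points for an adjusted p under 0.05. Cytotoxic, receptor and conventional NK genes lie to the right, with Gzma at 7.59, 9.68 and 7.59, and Il7r, Il2ra, Cxcr6 and Cd69 lie to the left in all 3 comparisons.

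NK cells of DB mice were then compared with those of WT mice at each age. Genes with at least 50 UMIs over both libraries were compared by their CPM, and a gene was called when the levels differed by at least 2-fold (a log2 ratio of 1). Intervals are exact binomial intervals for counting error, and a difference between the mice of a pool would enter the ratio unseen. At 12 weeks, 67 of 1598 genes were higher in DB past 2-fold (4.19%) and 66 were lower (4.13%), with 55 and 80 under TMM scaling and 63 and 76 under DESeq2 size factors. At 21 weeks, 102 of 1746 were higher (5.84%) and 149 lower (8.53%). The median log2 ratio of all genes was 0.03 at 12 weeks and -0.00 at 21 weeks.

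The conventional NK programme was lower in DB at both ages, without a test. Of 10 conventional NK genes with enough UMIs at 12 weeks, 8 were lower past 2-fold and 1 was higher, the median log2 ratio being -1.88. At 21 weeks 11 of 13 were lower and 1 was higher, with a median of -2.85. One of the 11 was Cma1, a mast cell protease. Without it 10 of 12 were lower (median -2.77), and without the cells rich in transcripts of other lineages, described below, 8 of 10 were lower at 12 weeks and 10 of 11 at 21 weeks. The gene higher past 2-fold was Cx3cr1 at 12 weeks and Emb at 21 weeks. Over all genes compared at both ages (1417), 28 were lower in DB at both. They included Gzma, Prf1, Eomes, Irf8, Zeb2, Klf2, Itga4, Klra3, Klre1, Klri2, Klrb1c, Ccl3 and Ccl4.

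Gzma was far lower in DB at both ages. It stood at 3727 CPM in WT and 270 in DB at 12 weeks, and at 6215 and 541 CPM at 21 weeks. Both WT libraries lay far above both DB libraries, with a log2 ratio of -3.79 (-4.16 to -3.44) at 12 weeks and -3.52 (-3.76 to -3.29) at 21 weeks. Prf1 stood at 341, 83.5, 666 and 82.0 CPM in library order, with log2 ratios of -2.03 (-2.78 to -1.34) and -3.02 (-3.68 to -2.42). Gzmb, the granzyme that triggers apoptosis through caspases, stood at 114, 11.4, 527 and 62.3 CPM, and its log2 ratio at 21 weeks was -3.08 (-3.85 to -2.39). Its 12-week counts were too few for the comparison.

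Other granule genes differed less or in the other direction. Nkg7, a granule membrane protein, stood at 1067, 566, 1190 and 518 CPM, with log2 ratios of -0.92 (-1.21 to -0.62) and -1.20 (-1.48 to -0.92), so it passed 2-fold at 21 weeks. Fasl, the death ligand, stood at 86.3, 49.3, 128 and 45.9 CPM, with -1.48 at 21 weeks. Srgn stood at 679, 683, 713 and 1076 CPM. Gzmc stood at 145 CPM in WT and 600 in DB at 12 weeks (log2 ratio 2.05, 1.52 to 2.60), but was carried by few cells, 4 and 8. At 21 weeks it stood at 71.0 and 82.0 CPM. Of the cytotoxic list, 2 of 9 genes were lower past 2-fold and 1 was higher at 12 weeks, and 5 of 11 were lower and 1 was higher at 21 weeks.

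Fewer NK cells held Gzma in DB. A UMI of Gzma was found in 63.4%, 15.4%, 84.2% and 18.4% of NK cells in library order. After thinning each cell to 2000 UMIs, which left 41, 38, 54 and 49 cells, the shares were 61.0%, 13.2%, 81.5% and 14.3%. Among macrophages, which should lack Gzma and can hold free RNA of it, the shares were 1.23%, 0.255%, 1.43% and 0.0631%, at median depths of 9307, 10621.5, 10857 and 9413.5 UMIs. Gzma was low in the other lymphoid gates, where its log2 ratio was -4.75 and -3.48 in γδ T cells and -3.70 and -2.65 in ILC2 at 12 and 21 weeks. In αβ T cells it went the other way at 12 weeks, at 2.12 CPM in WT and 27.6 in DB (3.70), with 49 of the 71 UMIs of DB in 1 cell, and the ratio at 21 weeks was -0.55.

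Several transcription factors were lower in DB, Eomes, Irf8 and Zeb2 among them, and others were not. Eomes stood at 314, 94.9, 331 and 59.1 CPM in library order, with log2 ratios of -1.73 (-2.44 to -1.06) and -2.49 (-3.30 to -1.75). Irf8 stood at 518, 60.7, 875 and 59.1 CPM, with -3.09 (-3.94 to -2.34) and -3.89 (-4.67 to -3.20). Zeb2, which drives terminal maturation, stood at 326, 144, 507 and 36.1 CPM, with -1.17 (-1.77 to -0.60) and -3.81 (-4.84 to -2.93). For all 3 the 2 WT libraries lay above the 2 DB libraries. Tbx21 did not pass 2-fold at either age, with 220, 118, 183 and 112 CPM and log2 ratios of -0.90 (-1.58 to -0.24) and -0.71 (-1.37 to -0.06). Runx3, a partner of T-bet, stood at 455, 456, 264 and 394 CPM, with log2 ratios of 0.00 and 0.58. Of the 13 transcription factors with enough UMIs, 5 were lower past 2-fold and none higher at 12 weeks, and 7 were lower and 1 (Ikzf2) was higher at 21 weeks.

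Eomes was seen in fewer cells of DB. The share of NK cells with an Eomes UMI was 61.0%, 23.1%, 59.6% and 16.3%, and after thinning 36.6%, 18.4%, 46.3% and 8.16%. In macrophages it was 0.223%, 0.306%, 0.172% and 0%.

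Inhibitory and activating receptors both included genes lower in DB, and the difference between the kinds was not tested. Of the inhibitory receptors, Klra3 stood at 357, 41.8, 466 and 72.2 CPM, with log2 ratios of -3.10 (-4.15 to -2.19) and -2.69 (-3.41 to -2.04). Klre1 stood at 204, 11.4, 274 and 32.8 CPM, with 3 UMIs in 12-week-DB against 52 in 12-week-WT, and Klri2 at 204, 60.7, 250 and 32.8 CPM. Of the activating list, Klrb1c stood at 235, 56.9, 176 and 85.3 CPM, with -2.05 (-2.97 to -1.21) and -1.04 (-1.78 to -0.34). Klra8, the Ly49H receptor, had no UMI in any library. Klrk1, which encodes the activating receptor NKG2D, stood at 353, 281, 443 and 433 CPM, with log2 ratios of -0.33 (-0.79 to 0.13) and -0.03 (-0.39 to 0.33). Fcer1g, an adaptor, stood at 993, 877, 1159 and 830 CPM. Tyrobp stood at 1032, 733, 1389 and 676 CPM, with -0.49 and -1.04. Without Ncr1, which chose the cells, 2 of 8 activating genes were lower past 2-fold at each age (Klrb1c with Klrb1f at 12 weeks and with Tyrobp at 21 weeks) and none higher, with medians of -0.41 and -0.31. Of inhibitory genes, 3 of 5 were lower at 12 weeks and 5 of 6 at 21 weeks, with medians of -1.75 and -2.16. Without the cells rich in transcripts of other lineages, 2 of 4 were lower at 12 weeks, with a median of -1.065, and 5 of 6 at 21 weeks. Klrd1 and Klrc1, the CD94 and NKG2A chains, gave log2 ratios of -0.60 and -0.29 at 12 weeks and -0.55 and -1.09 at 21 weeks.

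Several secreted factors were lower as well. Without Ccl5 and Xcl1, which the rule used, 2 of 6 were lower past 2-fold at 12 weeks and 3 of 5 at 21 weeks, and none was higher. Of the rule's own genes, Ccl5 was lower past 2-fold at both ages and Xcl1 was higher at 21 weeks (1.57, 1.19 to 1.97). Ccl4, a chemokine that recruits myeloid cells and T cells, stood at 738, 205, 2808 and 305 CPM, and Ccl3, its near relative, at 632, 106, 1298 and 289 CPM. The log2 ratios were -1.85 (-2.31 to -1.40) and -3.20 (-3.53 to -2.89) for Ccl4 and -2.57 (-3.21 to -1.99) and -2.17 (-2.52 to -1.83) for Ccl3. In 12-week-DB only 3 cells held Ccl4, and without the cell with the most UMIs in each library its ratio at 12 weeks was -5.16. Ifng stood at 345, 175, 608 and 194 CPM, with -0.98 (-1.53 to -0.45) and -1.65 (-2.10 to -1.22). AW112010 gave -1.39 (-1.65 to -1.14) and -1.69 (-1.89 to -1.49).

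Integrin genes were also lower. Itga4, an integrin chain for entry into tissue, stood at 424, 106, 578 and 65.6 CPM, with log2 ratios of -1.995 (-2.65 to -1.38) and -3.14 (-3.89 to -2.47). Itgam, which encodes CD11b and marks mature NK cells, stood at 106, 79.7, 183 and 9.84 CPM, and 3 UMIs against 54 gave -4.21 (-6.53 to -2.59) at 21 weeks. Past 2-fold, 2 of 12 trafficking genes were lower and 1 was higher at 12 weeks, and 7 of 13 were lower and none higher at 21 weeks. Cx3cr1, the fractalkine receptor, was the one that was higher, at 43.2 CPM in the WT and 349 in the DB library of 12 weeks. At 21 weeks it stood at 71.0 and 102 CPM, a log2 ratio of 0.52 (-0.33 to 1.39).

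Genes of ILC1 and tissue residence were higher in DB. Of 11 with enough UMIs, 5 were higher past 2-fold and none lower at 12 weeks (median log2 ratio 0.98), and 7 were higher and none lower at 21 weeks, with a median of 1.38. Il7r stood at 62.8, 205, 67.6 and 446 CPM, with 1.71 (0.88 to 2.61) and 2.72 (2.04 to 3.48). Its ratio in the same libraries was -0.15 and 1.27 in αβ T cells, -0.64 and 0.81 in γδ T cells and 0.24 and 0.71 in ILC2. Tmem176a and Tmem176b, a pair of membrane proteins, stood at 70.6, 281, 43.9 and 217 CPM and at 90.2, 216, 57.4 and 308 CPM. Gpr183, an oxysterol receptor that positions lymphocytes, stood at 94.2, 247, 77.7 and 354 CPM. Both DB libraries were above both WT libraries for each of these 4.

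Other residency genes were not as even. Rgs1 stood at 420, 1055, 953 and 1772 CPM, with log2 ratios of 1.33 and 0.89, and Ctla2a at 1138, 1579, 618 and 1742 CPM, with 0.47 and 1.49. Itga1, which encodes CD49a and is the classical ILC1 integrin, stood at 3.92, 30.4, 6.76 and 26.3 CPM, or 1, 8, 2 and 8 UMIs, too few for the comparison. Cxcr6 stood at 23.5, 64.5, 64.2 and 36.1 CPM. Genes higher in DB at both ages over the whole table numbered 7: Il7r, Tmem176a, Tmem176b, Gpr183, S100a6, Lgals3 and Socs2. Socs2, a brake on cytokine signalling, stood at 82.4, 182, 60.8 and 390 CPM.

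**Figure D3:**
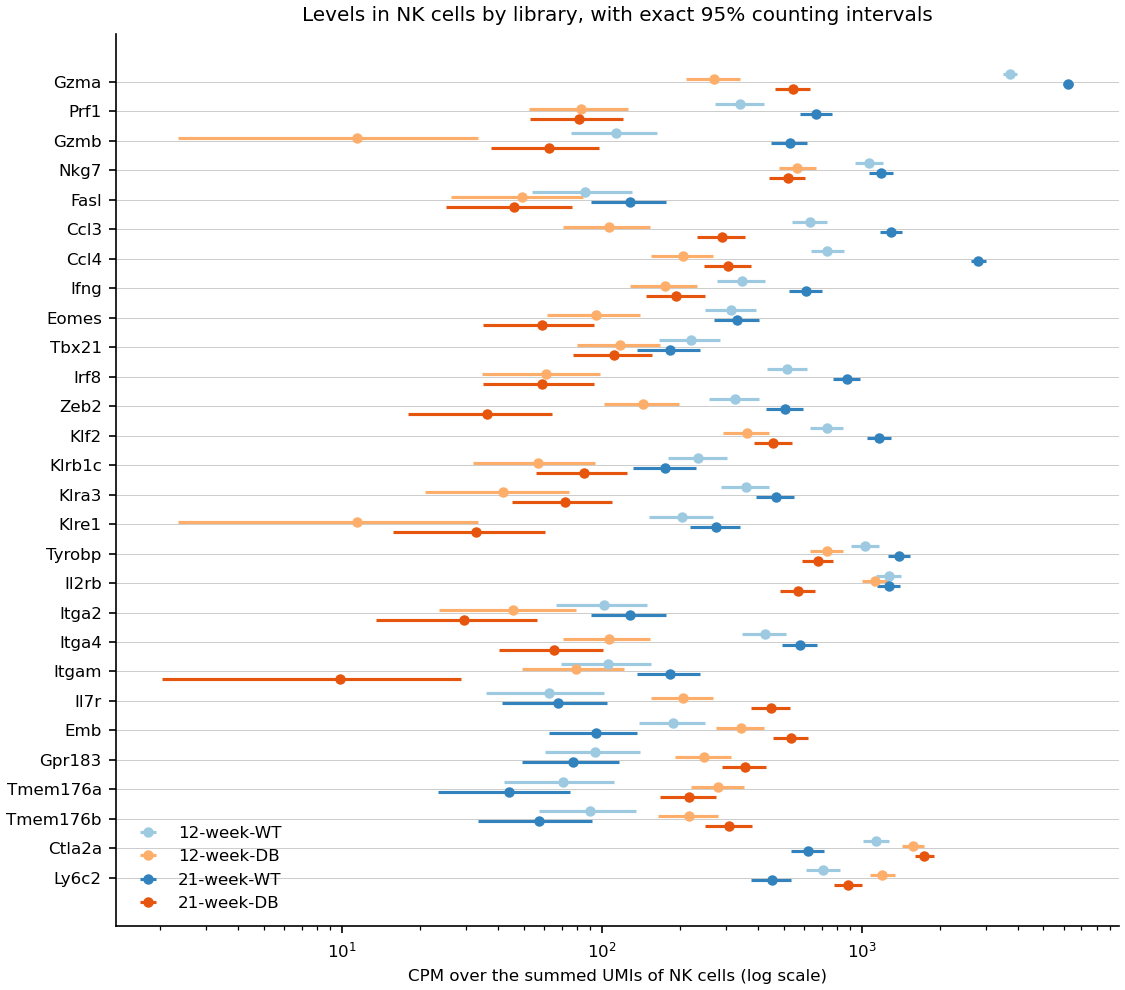
CPM of named genes over the summed UMIs of NK cells (x axis, log scale) in the 4 libraries, with exact 95% counting intervals. Gzma (3727 and 6215 CPM), Prf1, Gzmb, Ccl3, Ccl4, Eomes, Irf8, Klra3 and Klre1 lie further right in the WT libraries (blue), and Il7r, Gpr183, Tmem176a and Tmem176b further right in the DB libraries (orange).

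**Figure D4:**
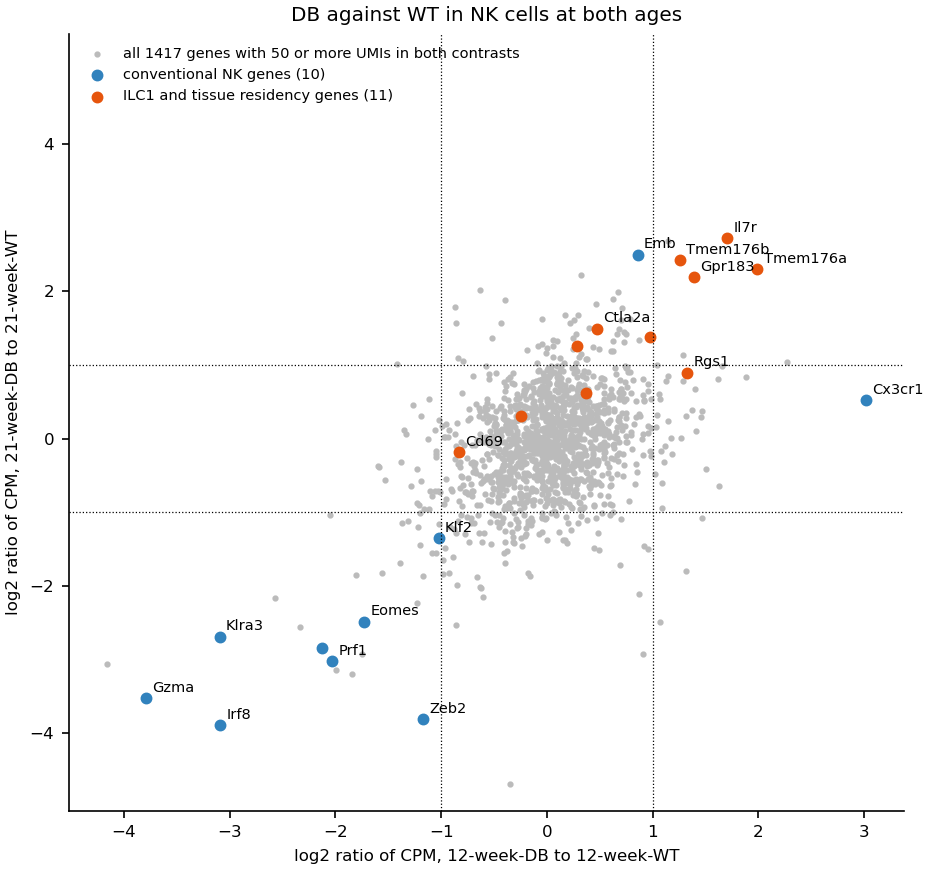
Log2 ratio of DB to WT at 12 weeks (x axis) and 21 weeks (y axis) for the 1417 genes with 50 or more UMIs in both contrasts, with 2 gene lists in colour and dotted lines at 2-fold. Conventional NK genes lie mostly at the lower left and ILC1 and residency genes mostly at the upper right, with Cx3cr1 and Emb as exceptions.

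Cells were classed by Eomes and Il7r to see how the 2 sets of genes were spread over cells. These classes were drawn after the levels were seen and rest on few UMIs per cell, so they are a description. Cells with Eomes and no Il7r made up 23 of 41 (56.1%), 8 of 39 (20.5%), 31 of 57 (54.4%) and 4 of 49 (8.16%) in library order. Cells with Il7r and no Eomes made up 5 (12.2%), 19 (48.7%), 5 (8.77%) and 32 (65.3%). Cells with both numbered 2, 1, 3 and 4, and cells with neither 11, 11, 18 and 9. The first class was the largest in both WT libraries and the second the largest in both DB libraries.

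Gzma levels differed between these classes. It stood at 5301, 1197, 8443 and 4045 CPM in the Eomes-positive, Il7r-negative cells in library order. In the Il7r-positive, Eomes-negative cells it had 0 UMIs in both 12-week libraries and stood at 182 and 191 CPM at 21 weeks. Cells with neither gene held it at 3846, 0, 5346 and 299 CPM, so it was also high in WT cells, and lower in DB cells, in which no Eomes UMI was seen. Ly6c2 stood at 375, 1129, 412 and 945 CPM in the first class and at 1522, 1120, 650 and 927 CPM in the second, so it was higher in the second class in the WT libraries and nearly equal in the DB libraries. A UMI of it was found in 53.7%, 92.3%, 43.9% and 85.7% of all NK cells. The Il7r share itself was 17.1%, 51.3%, 14.0% and 73.5% of NK cells, and 15.3%, 15.9%, 19.4% and 21.6% of macrophages, which held more UMIs per cell. Thinned to 2000 UMIs, the NK shares were 7.32%, 28.9%, 9.26% and 53.1%, and the macrophage shares 4.06%, 5.58%, 6.57% and 10.0%. The WT shares at equal depth rest on 3 and 5 cells, and their intervals (1.54 to 19.9 and 3.08 to 20.3) hold the macrophage values, so the WT cells could not be told from background.

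**Figure D5:**
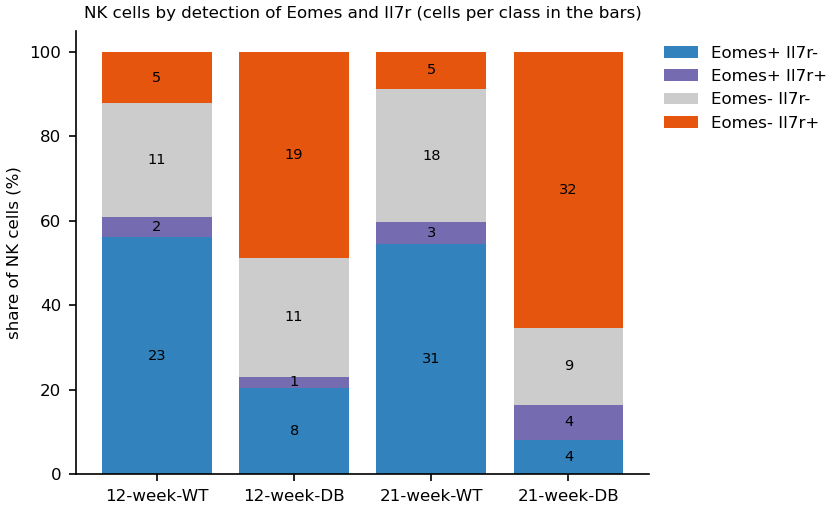
Share of NK cells (%, stacked bars) by detection of Eomes and Il7r in each library, with the number of cells per class in the bars. Eomes-positive, Il7r-negative cells make up 56.1% and 54.4% in the WT libraries and 20.5% and 8.16% in the DB libraries.

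The DB cells met the same rule as the WT cells, with less of the genes of conventional NK cells. The rule cannot say whether the DB libraries held fewer Eomes-positive NK cells beside other Ncr1+ lymphocytes or the same cells with less of these transcripts, and the 2 cannot be told apart here. Gata3, an ILC2 marker, had been capped by the rule at fewer than 2 UMIs per cell. Markers of ILC2 came to 1326, 1879, 858 and 1982 CPM over 10 genes, with 5, 6, 6 and 7 detected. Ctla2a was the most abundant of them in each library, and Il17rb and Il5 had no UMI. γδ T cell markers came to 628, 425, 456 and 525 CPM, mostly Gem, and Tcrg-C2 had no UMI.

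Transcripts of dendritic cells, of macrophages at 12 weeks in DB and of mast cells at 21 weeks in WT came mostly from few cells. The 9 dendritic cell markers came to 1773, 3652, 2744 and 640 CPM, with Cd74 or Cst3 the most abundant, and 4, 3, 4 and 2 cells with at least 20 such UMIs held 274 of 452, 806 of 962, 580 of 812 and 121 of 195 of them. Xcr1 had no UMI outside 21-week-WT. The 10 macrophage markers came to 942, 1875, 318 and 240 CPM, mostly Lyz2 except in 21-week-DB, and 1, 3, 0 and 0 cells with at least 20 such UMIs held 119 of 240, 412 of 494, 0 of 94 and 0 of 73 of them. Mast cell markers came to 106, 30.4, 1261 and 91.9 CPM, and 2 cells of 21-week-WT held 349 of its 373 UMIs, while no cell of the other libraries held 20. B cell markers came to 439, 197, 189 and 91.9 CPM, mostly Ighm, and neutrophil and stromal markers to at most 40.6 and 19.6 CPM. The monocyte list came to 1252, 1587, 916 and 1132 CPM, mostly Ly6c2.

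The DB ratios of the main genes stayed past 2-fold without the cells that were rich in transcripts of other lineages (4, 3, 6 and 2 cells). Gzma then gave -4.51 at 12 weeks and -3.61 at 21 weeks, Eomes -1.64 and -2.79, Prf1 -1.86 and -3.11, and Il7r 1.76 and 2.66. The top of the 12-week list did depend on them. Lyz1, Fxyd2, Ecm1 and Fn1 led the genes higher in DB at 12 weeks (log2 ratios 6.16, 4.12, 3.45 and 3.21), but 212 of 222 Lyz1 UMIs and 120 of 153 Fn1 UMIs lay in 1 cell, and without the rich cells Fn1 gave -2.68. Some list counts moved as well. At 12 weeks, 1 of 12 transcription factors was then higher past 2-fold and 4 were lower, 2 of 8 cytotoxic genes were higher and 2 lower, 3 of 12 trafficking genes were lower, 4 of 20 early response and heat-shock genes were lower and none of 6 glycolysis genes was past 2-fold. At 21 weeks, 2 of 13 transcription factors were higher and 8 lower, 1 of 4 glucocorticoid-responsive genes was higher, and 3 of 20 early response and heat-shock genes were higher and 2 lower. With these cells left out, 34 of 1289 genes were higher and 47 lower at 12 weeks.

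At 21 weeks some of the leading genes were on the lists above and some were not. The 8 highest ratios were those of Gm12840, Il7r, Socs2, Emb, Tmem176b, Tmem176a, Hilpda and Snhg8. Gm12840, an unnamed transcript, had 70 UMIs in 21-week-DB and none in 21-week-WT. Emb stood at 94.6 CPM in WT and 535 in DB, a log2 ratio of 2.50 (1.91 to 3.13). The 8 lowest were Cma1, Mcpt2, Gm15564, Itgam, Irf8, Zeb2, Gzma and Ccl4. Cma1 and Mcpt2 are mast cell proteases, and 137 of the 176 Mcpt2 UMIs of 21-week-WT lay in 1 cell.

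Metabolic, signalling and stress genes were compared in the same way. Lepr, the gene mutated in DB, had no UMI in NK cells of any library. Irs2, an insulin receptor substrate, stood at 51.0, 56.9, 50.7 and 226 CPM and was high in 21-week-DB alone, with a log2 ratio to 21-week-WT of 2.16 (1.34 to 3.07). Of glycolysis and glucose transport genes, 1 of 9 (Pfkp) was lower past 2-fold at 12 weeks and none of 8 was past 2-fold at 21 weeks. Of glucocorticoid-responsive genes, none of 4 was past 2-fold at 12 weeks and 2 of 5 (Txnip and Errfi1) were higher at 21 weeks. All 20 early response and heat-shock genes were lower in 12-week-DB, 6 of them past 2-fold, with a median of -0.76, whereas at 21 weeks the median was -0.08, with 1 higher and 2 lower. Such genes respond to digestion and handling: Hspa1b stood at 6784, 3162, 9233 and 5637 CPM and Junb at 4171, 2805, 2112 and 2146 CPM. Their part in the other differences was not tested. Proliferation genes held enough UMIs for 3 genes at 12 weeks and 2 at 21 weeks, none past 2-fold, and lipid handling genes for 1 and 0.

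Cytokine receptors other than Il7r lay within 2-fold at 12 weeks. Il2rb stood at 1271, 1124, 1267 and 568 CPM, with log2 ratios of -0.18 (-0.41 to 0.05) and -1.16 (-1.43 to -0.90). Il18r1, a receptor chain for interleukin-18, stood at 518, 524, 318 and 568 CPM, with 0.02 and 0.84. Past 2-fold, 1 of 6 was higher and none lower at 12 weeks, and 1 of 7 was higher and 2 (Il18rap and Il2rb) lower at 21 weeks. Among interferon-stimulated genes, 1 of 3 (Ifi203) was lower past 2-fold at 12 weeks and none of 4 was past 2-fold at 21 weeks. In the other kept cells of the libraries, Il15, the survival cytokine of NK cells, stood at 14.3, 9.50, 8.94 and 6.21 CPM. Il18 stood at 16.9, 18.3, 11.8 and 11.7 CPM, and Cxcl16, the ligand of Cxcr6, at 156, 114, 183 and 140 CPM.

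Age was compared within each genotype, from the same 4 libraries. The 12-week and 21-week files carry different software versions in their headers, so age and software cannot be told apart. In WT, 21 of 1621 genes were higher at 21 weeks past 2-fold (1.3%) and 45 were lower (2.78%), fewer than for either DB contrast. With TMM scaling the counts were 30 and 34, and with DESeq2 size factors 30 and 38. The balance turned to 27 higher and 22 lower with at least 2 Ncr1 UMIs per cell, and to 11 and 10 among genes with at least 100 UMIs. Gzmb was higher, with a log2 ratio of 2.21 (1.63 to 2.84), as were Ccl4 at 1.93 and Klra7, a Ly49 receptor, at 3.03 (57 against 6 UMIs). Xcl1 had a log2 ratio of -1.79, Klf4, a zinc finger factor, -2.34 and Thy1 -1.67. Conventional NK genes gave 2 of 13 higher (Klra7 and the mast cell protease Cma1) and none lower, with a median of 0.67, with 1 of 12 higher without Cma1 and 3 of 12 without the cells rich in transcripts of other lineages.

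In DB, 73 of 1715 genes were higher at 21 weeks (4.26%) and 122 were lower (7.11%). The balance turned with the scaling, to 117 higher and 64 lower with TMM and to 104 and 78 with DESeq2 size factors. Serpinb1a, a granule protease inhibitor, gave a log2 ratio of 2.57 (1.56 to 3.77), Irs2 1.99 and Cd28 1.69. The genes lowest at 21 weeks (Lyz1, Gm15564, Ecm1, Fn1, Ccl6, Tppp3, Lyz2 and Alox5ap) included those carried by single cells of 12-week-DB. Of early response and heat-shock genes, 6 of 20 were higher and 1 was lower, or 3 and 1 without the cells rich in transcripts of other lineages. Of trafficking genes 4 of 10 were lower and none higher (Cx3cr1, Itgb2, Cxcr4 and Itgb7). Conventional NK genes with enough UMIs were 4 only, with Gzma higher (270 and 541 CPM) and Cx3cr1 lower (349 and 102 CPM).

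The upstream letters were counted over the genes that differed at both ages. Of the 28 lower in DB, 22 had a RefSeq promoter, of which 2 held the T-box letters (Gzma and Prf1), 7 the Runx letters and 5 the Ets letters, or 9.09%, 31.8% and 22.7%. Of the 7 higher in DB, 6 had one, of which 0, 1 and 3 held them. The shares over all promoters are those given above (11.99%, 14.2% and 19.99%).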

How the data were processed

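CD45+ hindpaw leukocytes were profiled with the 10x Genomics single cell 3′ v3 protocol. Reads were mapped to mm10 by the authors, using Cell Ranger, and the deposited values are UMI counts for every gene in every barcode, without normalization. The headers name Cell Ranger 5.0.0 for the 12-week files and 6.0.0 for the 21-week files, and the submitters' processing notes name 5.0.0. The study removed free RNA and doublets in its own work, which the deposited counts do not include.

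Barcodes were kept from 200 detected genes upwards and up to 10% mitochondrial UMIs, and doublets were not removed. Of the highest Scrublet scores (scanpy 1.11.5, 253, 391, 477 and 636 barcodes in library order), 0, 1, 1 and 0 were NK cells. αβ T cells had at least 2 UMIs of Cd3e and Cd3g together, 1 of Trac, and none of Trdc or Foxp3. γδ T cells had at least 2 of the CD3 genes, at least 2 of Trdc and none of Trac, and ILC2 had at least 2 of Gata3 and no CD3 UMI. All 3 gates had no Ncr1 and fewer than 5 C1q UMIs and 5 mast cell UMIs (Cpa3, Mcpt4 and Cma1 together).

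Counts were summed over the cells of a gate. Conditions were compared by CPM without a test. NK cells were compared with each gate by edgeR 4.0.16 in R 4.3.3 (TMM, filterByExpr, quasi-likelihood test, library as block, adjusted p under 0.05), a procedure tested on simulated data. Confidence intervals (95%) came from scipy 1.17.1, and UMI counts from pooled cells make them cover counting error only. DESeq2 1.42.0 was an alternative. The text names the genes of the lists, the 8 largest ratios in each direction per contrast (at least 50 UMIs over both libraries and 100 CPM in the higher) and the 8 largest called changes per test (at least 50 CPM on the higher side and 1 direction in 4 libraries). A few others were chosen after their values were seen, Il22 and Il23r among them. Members and lists were chosen with earlier results of these data known. Results for some genes are not reported here.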

Additional observations from a re-analysis of the deposited data

Results flagged for a closer look

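In NK cells, 4 genes were past 2-fold in DB against WT in opposite directions at the 2 ages. The differences between ages were not tested, since each condition had 1 library. Cd28, a costimulatory receptor, had log2 ratios of -1.41 (12 weeks) and 1.02 (21 weeks). Lyz2, a myeloid lysozyme, had 1.47 and -1.075 in the same order. Cd74, the invariant chain of MHC class II, had 1.31 and -1.79, and H2-Aa, a class II chain, had 1.07 and -2.49. Without the few cells rich in transcripts of other lineages, the 12-week ratios of Lyz2, Cd74 and H2-Aa were 0.07, 0.08 and -0.31. In 21-week-DB, Cd74 was also lower than in 21-week-WT in αβ T cells (-5.92), γδ T cells (-1.85) and ILC2 (-2.86).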

How the results depend on the processing

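With a minimum of 2 Ncr1 UMIs, the NK shares were 0.474%, 0.351%, 0.454% and 0.310% in library order. With all of Cd3d, Trac, Trbc1 and Trbc2 at 0, they were 0.0949%, 0.107%, 0.110% and 0.0115% (5, 7, 8 and 1 cells), and the DB to WT ratio at 21 weeks was 0.104. The ratio over the lymphoid gates was 0.483 at 12 weeks. The interval of the 21-week ratio excluded 1 with at most 5% mitochondrial UMIs (0.613, 0.408 to 0.919), with cells thinned to 2000 UMIs (0.640, 0.414 to 0.989), with Cd3d and Trac at 0 (0.645, 0.435 to 0.954) and with all T cell receptor genes at 0 (0.0131 to 0.834), and held 1 with the other settings over all kept barcodes. Genes past 2-fold numbered 61 of 921 compared, 189 of 963, 49 of 947 and 121 of 912 with 2 Ncr1 UMIs. They numbered 52 of 190, 27 of 82, 16 of 134 and 64 of 158 with the T cell receptor genes at 0, and 53 of 689, 113 of 765, 21 of 722 and 79 of 736 with at least 100 UMIs, against 133 of 1598, 251 of 1746, 66 of 1621 and 195 of 1715 as reported, for DB to WT at 12 and 21 weeks and for 21 to 12 weeks in WT and DB. Without cells rich in other lineages' genes, an alternative added after the data were seen, as was leaving out the cell with the most UMIs, the 12-week DB to WT count was 81 of 1289. Log2 ratios then turned direction for Fn1 (-2.68) and H2-Aa (-0.31) in DB to WT at 12 weeks, Mcpt2 (0.96) in DB to WT at 21 weeks, Mcpt2 (-1.37) and Cst3 (-0.053) in WT with age, and Fn1 (0.57) in DB with age. TMM scaling moved the share of called genes that were higher from 37.4% to 64.6% for DB with age and from 31.8% to 46.9% for WT with age, and DESeq2 size factors to 57.1% and 44.1%. TMM moved 1 of 175 named values, leaving out the cell with the most UMIs moved 27, and leaving out the rich cells moved 29 beside those 6. The cause was not tested.

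For NK cells against αβ T cells, γδ T cells and ILC2, edgeR called 542, 894 and 769 genes without the library block, and 151, 241 and 219 with the T cell receptor genes at 0, where the cells are few. Leaving out each library gave 645 to 712, 922 to 1223 and 807 to 945, and for γδ T cells the 922 came without 12-week-WT. DESeq2 called 705, 1104 and 908. Without the filter on low counts edgeR called 1311, 1712 and 1430. The comparison of Eomes or Itga2 cells with Itga1 or Cxcr6 cells among NK cells, with all its alternatives, was not run, because only 2 libraries held at least 10 cells on each side. NK cells and their comparators were paired within each library by that block. A paired analysis of genotype with age as a block over the 4 libraries was not run.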
